A study of Daphnia magna with 9 samples.

Results

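The genes described here encode proteins that write, remove or read marks on histones, remodel nucleosomes, or bind methylated CpG. They were chosen by the gene name given in the deposited expression table, which had to contain a term for histone-lysine enzymes, histone deacetylases or acetyltransferases, lysine-specific demethylases, UHRF1, methyl-CpG-binding proteins, Polycomb or trithorax group proteins, chromodomain or bromodomain proteins, or SWI/SNF subunits. The choice gave 119 genes of 42462 gene IDs, of which 14965 carried a name. No expression value entered it, and the 3 DNA methyltransferase genes were set aside.

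RNA of whole bodies of female Daphnia magna, a planktonic crustacean that reproduces clonally, was sequenced in 9 libraries. The 3 groups of 3 libraries were the starved wild type (the NIES strain), the starved DNMT3.1 mutant and the nutrient-rich DNMT3.1 mutant, all of post natal day 12, at the second clutch, with 5 daphnids pooled per library and their eggs removed. DNMT3.1 is a DNA methyltransferase 3 family gene without most of the conserved motifs of a catalytic domain. The mutant was made from the NIES strain with CRISPR/Cas as a biallelic frameshift with premature stop codons. It is 1 line, so that the mutation and other properties of the line cannot be told apart. Starved daphnids of both genotypes received 8-fold less Chlorella than nutrient-rich ones. The nutrient-rich wild type is not analysed here, and the starved mutant was therefore compared with the starved wild type, in which genotype differs, and with the nutrient-rich mutant, in which food differs. Both comparisons share the starved mutant libraries.

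In background, methyl groups on cytosine are bound by proteins with a methyl-CpG-binding domain, which recruit histone deacetylases, and in vertebrates UHRF1 binds hemimethylated CpG and brings the maintenance methyltransferase to new DNA. Histone acetyltransferases and deacetylases add and remove acetyl groups on lysines. Trithorax group proteins keep genes active and Polycomb group proteins keep them silent in Drosophila, where both groups were found. SWI/SNF complexes slide or evict nucleosomes, and osa is their ARID-domain subunit in the fly BAP complex. Arthropod genomes carry CpG methylation mostly within gene bodies and at low levels.

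The libraries held 9270993 to 11806614 counted reads. Levels are given in CPM, the counts divided by the library size after TMM scaling and expressed per 1e6 reads. A gene was called when its edgeR adjusted p was below 0.05 with a change of 1.5-fold or more. The transcript of DNMT3.1 (Dapma7bEVm006722t1) remained countable in the mutant, at 79.0 to 111 CPM (starved wild type), 39.9 to 87.4 CPM (starved mutant) and 4.39 to 10.8 CPM (nutrient-rich mutant), so that its level does not show the genotype. Its log2 fold change between the starved groups was -0.54 (SE 0.35, edgeR adjusted p = 0.464). Nutrient-rich mutant replicate 2 stood apart from the other 8 libraries. Its TMM factor was 0.749 against 0.928 to 1.13, and its 10 most abundant features took 19.5% of the reads against 8.60% to 12.9%. Values that changed most when it was left out are given both ways. The 3 libraries of a group came from repeats of the treatment, whose days were not stated, and p-values measure the spread between these libraries. In whole-body RNA, fewer cells of a type and less RNA per cell cannot be told apart.

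Of the 119 genes, 76 passed the filter on low counts and 43 did not. Of those that did not, 24 had 0 counts in all 9 libraries and the most abundant had 55 counts over all libraries together. They were 32 genes named histone-lysine N-methyltransferase, 5 demethylases, 4 chromodomain genes, 1 deacetylase and 1 bromodomain gene. The name NSD2, a methyltransferase of histone H3 lysine 36 in mammals, was carried by 34 genes, of which 3 passed the filter. The Gene Ontology term DNA integration was attached to 22 of these 34 (64.7%), against 5.03% of all annotated gene IDs, and a chromatin or histone term to 2 (5.88%). The 76 tested genes differed from this, with a chromatin or histone term in 51 of them (67.1%). Names and terms are those of the deposited table, which took them from homologs, and a name alone does not establish the protein's role in Daphnia.

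Most tested members were expressed at a moderate level in every group. Per length, their mean RPKM over the 9 libraries had a median of 7.91, against 6.29 for all tested features, with quartiles of 4.99 and 12.8. The highest was the osa-like gene Dapma7bEVm001111t1 at 84.0 RPKM, followed by the deacetylase Rpd3 (Dapma7bEVm003192t1) at 51.1 RPKM. Another gene with osa in its name, osa isoform X4 (Dapma7bEVm010676t1), followed at 24.4 RPKM. By contrast, 5 tested members had a mean RPKM under 1. One of them, an NSD2-like gene (Dapma7bEVm030282t1), was listed at an RPKM of 0 although it had 232 counts, and the source of this mismatch was not tested.

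Between the starved groups, 3 members were higher in the mutant and 1 was lower. These 4 of 76 (5.26%) compare with 7.17% of all tested features called, or 2.93% called higher and 4.24% called lower. The 4 were the 3 genes named osa and 1 named histone-lysine N-methyltransferase 2A-like, and none of the readers, deacetylases, acetyltransferases or demethylases was called. The median log2 fold change of the 76 was 0.20, against -0.003 for all features, with 60 above 0 and 16 below. In 31 members each mutant library lay above each wild-type library, and in 5 below, against a background of 20.1% and 21.1% of all features (41.2% either way).

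Between the mutant groups, 6 members were higher in the starved mutant and 1 was lower, in all 7 of 76 (9.21%) against 23.1% of all tested features, or 11.1% called higher and 12.0% called lower. They were the same 4 genes, called in the same direction, and 3 more that were higher: a UHRF1 gene, the Polycomb gene Asx and chromodomain protein Y-like 2. The median log2 fold change was 0.01, against -0.07 for all features, with 39 above 0 and 37 below. The starved and nutrient-rich libraries were fully separate in 16 members, 10 above and 6 below, where 20.0% and 20.3% of all features were so (40.3% either way).

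**Figure D1:**
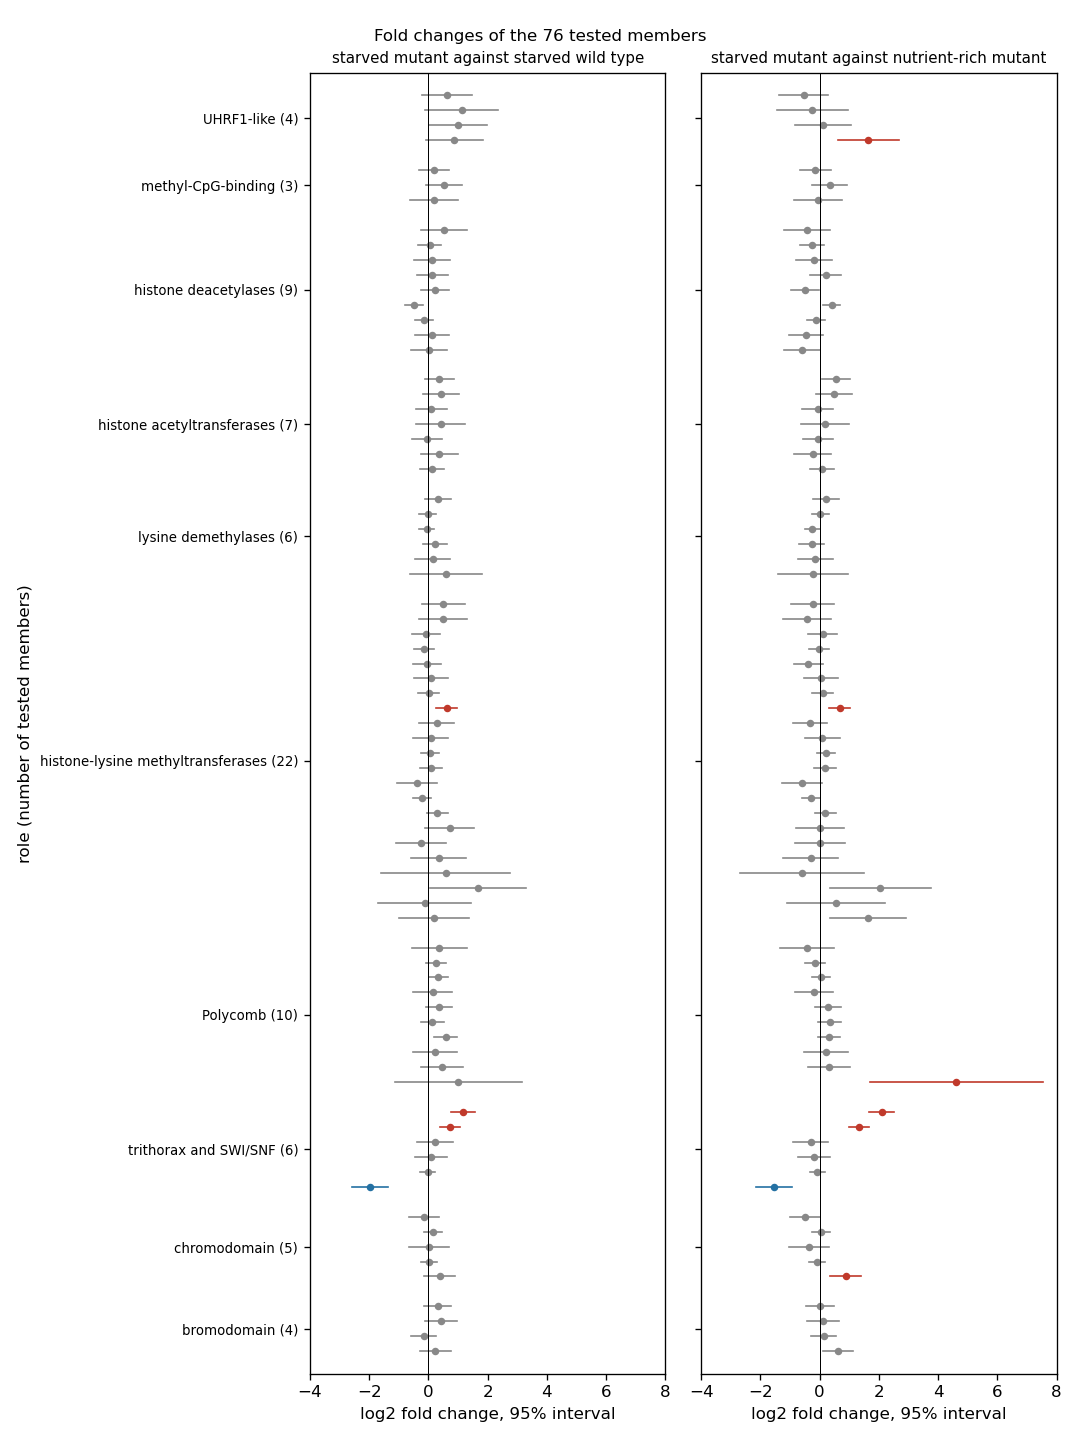
Log2 fold change (x axis) of each of the 76 tested members, with its 95% interval, grouped by role (y axis, number of tested members in parentheses), for the comparison of the starved groups (left) and of the mutant groups (right), where positive values mean higher in the starved mutant. Red points were called higher and blue points lower. The 4 calls on the left lie in the trithorax and SWI/SNF group and among the histone-lysine methyltransferases, and the 7 on the right add 1 each in the UHRF1, Polycomb and chromodomain groups.

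Between the starved groups the 3 genes named osa had the largest changes among the 4 called members. In the fly, osa is the subunit of the SWI/SNF complex that contacts DNA through an ARID domain. Of the 3 genes with this name, 1 carried a chromatin or histone term, and their role in Daphnia was not tested. The osa-like gene Dapma7bEVm001111t1 had 167, 168 and 192 CPM in starved wild-type replicates 1 to 3. In starved mutant replicates 1 to 3 it had 319, 465 and 387 CPM, and in the nutrient-rich mutant 89.5, 78.1 and 108 CPM. The 3 groups did not overlap, with the starved mutant on top and the nutrient-rich mutant at the bottom. The starved mutant was 2.23-fold higher than the starved wild type (log2 fold change 1.15, SE 0.18, edgeR adjusted p = 0.00602) and 4.25-fold higher than the nutrient-rich mutant (2.09, SE 0.18, edgeR adjusted p = 0.000145). Both calls held in 19 of 19 alternatives. The 19 included the same fit without the fold change minimum, in which no call could be lost. The only Gene Ontology term attached to this gene named a peptidase activity.

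Osa isoform X4 (Dapma7bEVm010676t1), the member of the 3 that carried the terms chromatin remodeling and SWI/SNF complex, followed the same order at smaller size. It had 169, 176 and 165 CPM in starved wild-type libraries, 249.8, 313 and 281 in starved mutants and 98.8, 134 and 106 in nutrient-rich mutants. Again no group overlapped another. The log2 fold change was 0.72 between the starved groups (SE 0.15, edgeR adjusted p = 0.0202) and 1.32 between the mutant groups (SE 0.15, edgeR adjusted p = 0.000505). The call between the starved groups was lost in 5 alternatives, each of which left out 1 library of a starved group (starved wild-type replicate 1, 2 or 3, or starved mutant replicate 2 or 3), with adjusted p up to 0.0948 in edgeR. The gene ID has another feature in the table, with a mean of 38.7 CPM in starved wild-type libraries, 41.8 in starved mutants and 31.3 in nutrient-rich mutants. That feature was not called in either comparison, at a log2 fold change of 0.11 (SE 0.17, edgeR adjusted p = 0.809) and 0.42 (SE 0.17, edgeR adjusted p = 0.117). Whether the features of this gene differ in their change was not tested.

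The osa-like gene Dapma7bEVm023089t1 went the other way. Its level was 12.0, 13.0 and 16.5 CPM in starved wild-type libraries, 3.84, 3.22 and 3.53 CPM in starved mutants and 6.63, 11.4 and 12.8 CPM in nutrient-rich mutants. The 3 starved mutant libraries were the lowest of all 9. The log2 fold change was -1.97 between the starved groups (SE 0.27, edgeR adjusted p = 0.00343) and -1.54 between the mutant groups (SE 0.27, edgeR adjusted p = 0.00357), and both calls held in 19 of 19 alternatives. A membrane term was the only one attached to it. The other 3 members of the group, named as SMARCB1-, SMARCE1- and SMARCC2-type subunits of SWI/SNF, had log2 fold changes of -0.02 to 0.23 between the starved groups and of -0.30 to -0.08 between the mutant groups, and none was called.

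**Figure D2:**
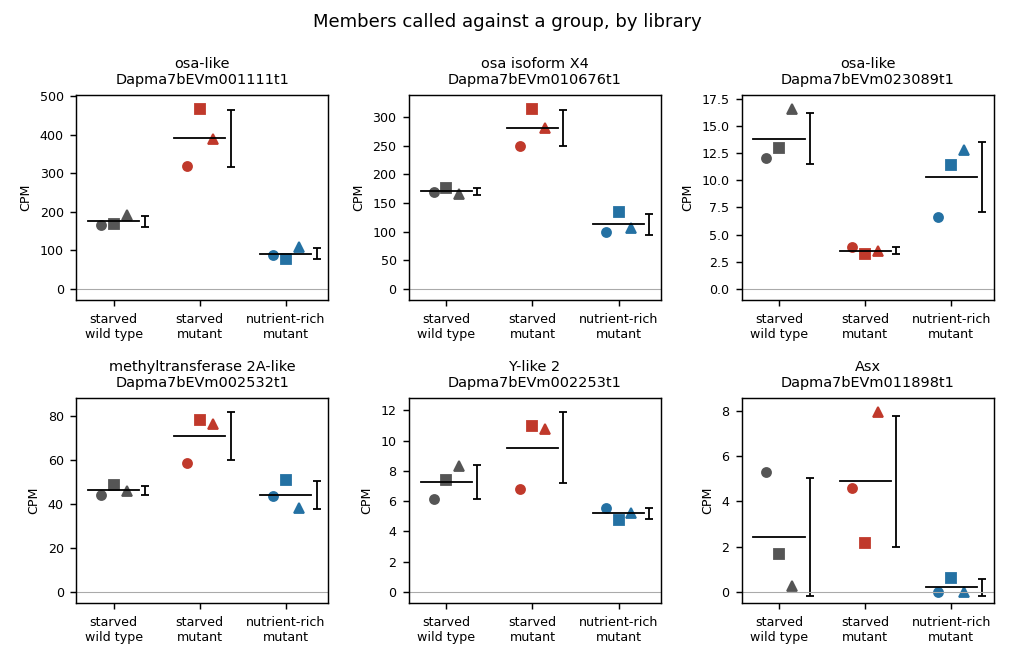
CPM (y axis, TMM-scaled) of 6 members called in at least 1 comparison, for each of the 9 libraries (circle, square and triangle for replicates 1, 2 and 3), with the group mean as a horizontal line and the SD over 3 libraries as a bar beside it. In the osa-like gene Dapma7bEVm001111t1 the starved mutant lies at 319 to 465 CPM above both other groups, and in the osa-like gene Dapma7bEVm023089t1 at 3.22 to 3.84 CPM below them.

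Among the histone-lysine methyltransferases, 1 of 22 tested genes was called in each comparison, where 7.17% and 23.1% of all features were. Histone-lysine N-methyltransferase 2A-like (Dapma7bEVm002532t1) is named after a family that methylates lysine 4 of histone H3 and to which fly trithorax belongs. It had 44.3, 48.6 and 46.1 CPM in starved wild-type libraries, 58.7, 78.2 and 76.4 in starved mutants and 43.6, 51.0 and 38.4 in nutrient-rich mutants. The starved mutant lay above both other groups, which overlapped each other. Its log2 fold change was 0.62 between the starved groups (SE 0.16, edgeR adjusted p = 0.0478), close to both thresholds, and 0.68 between the mutant groups (SE 0.16, edgeR adjusted p = 0.0125). The first call held in 10 of 19 alternatives and the second in 15 of 19. Leaving out any 1 of the 3 starved wild-type libraries, starved mutant replicate 2 or 3, or nutrient-rich mutant replicate 1 or 3 ended the first call, as did the replicate block and a fit on every feature with a count, with adjusted p up to 0.198.

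The other 21 methyltransferases were not called by edgeR on their main feature. A further feature of methyltransferase 2D-like (Dapma7bEVm014947t1) was called higher between the mutant groups (log2 fold change 0.60, SE 0.17, edgeR adjusted p = 0.0283). DESeq2 called methyltransferase 2C and NSD2-like Dapma7bEVm030282t1 higher there (DESeq2 adjusted p = 0.0408 and 0.0147), with 25.5% of all features called. Limma-voom called both there as well (32.2% of all features). The most abundant per length was PR-set7 (Dapma7bEVm007044t1), which monomethylates lysine 20 of histone H4, at 19.4 RPKM. It had 29.5, 28.3 and 30.3 CPM in starved wild-type libraries, 35.7, 49.6 and 39.8 in starved mutants and 36.1, 79.6 and 32.2 in nutrient-rich mutants. All starved mutant libraries were above all starved wild-type ones, but the log2 fold change of 0.51 (SE 0.32) did not pass the test (edgeR adjusted p = 0.457), and the nutrient-rich libraries spanned the others. SUV39H2, a methyltransferase of histone H3 lysine 9, was nearly as abundant at 19.3 RPKM and had a log2 fold change of 0.49 (SE 0.36, edgeR adjusted p = 0.54). E(z), the methyltransferase of Polycomb repressive complex 2, stood at -0.09 (SE 0.21) and 0.10 (SE 0.21) in the 2 comparisons, and without nutrient-rich mutant replicate 2 the latter was 0.40 (SE 0.10, edgeR adjusted p = 0.0123), below the fold change required for a call. Over the 22 the median log2 fold change was 0.09 between the starved groups and 0.03 between the mutant groups.

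UHRF1-named genes were higher in each starved mutant library than in each starved wild-type library in 4 of 4 cases (20.1% of all features), but 0 of 4 passed the edgeR test in the fit of all 9 libraries. An unadjusted p below 0.05 was reached by 1 of them, DESeq2 called 0 (11.3% of all features) and limma-voom called 4 (22.4% of all features). The most abundant, Dapma7bEVm001772t1 (8.28 RPKM), had 14.9, 14.6 and 16.6 CPM in the starved wild type and 19.8, 28.2 and 23.1 in the starved mutant. In the nutrient-rich mutant it had 24.6, 58.8 and 19.9 CPM, the value of 58.8 being that of replicate 2. The log2 fold change was 0.63 between the starved groups (SE 0.37, edgeR adjusted p = 0.414) and -0.53 between the mutant groups (SE 0.36, edgeR adjusted p = 0.327).

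The UHRF1-like gene Dapma7bEVm001259t1 (6.15 RPKM) had 4.79, 5.38 and 5.97 CPM in starved wild-type libraries, 8.23, 14.9 and 12.1 in starved mutants and 6.43, 28.5 and 7.03 in nutrient-rich mutants. Replicate 2 of the nutrient-rich mutant was again the highest of all libraries, 4.23-fold above the mean of the other 2 of its group. The log2 fold changes were 1.12 (SE 0.55, edgeR adjusted p = 0.308) and -0.24 (SE 0.53, edgeR adjusted p = 0.781). The third UHRF1-like gene, Dapma7bEVm008354t1 (4.26 RPKM), had 2.85, 3.39 and 5.03 CPM in starved wild-type libraries, 5.80, 9.36 and 7.49 in starved mutants and 5.35, 11.8 and 3.78 in nutrient-rich mutants. Its values gave log2 fold changes of 1.01 (SE 0.43, edgeR adjusted p = 0.237) and 0.13 (SE 0.42, edgeR adjusted p = 0.859).

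When nutrient-rich mutant replicate 2 was left out, the estimates for these 3 UHRF1-like genes between the starved groups stayed at 0.64, 1.13 and 1.01 while their standard errors fell to 0.15, 0.22 and 0.28. All 3 were then called higher in the starved mutant (edgeR adjusted p = 0.023, 0.0114 and 0.0377), while calls over all features rose from 7.17% to 13.8%. The same 3 were called in a fit of the 6 starved libraries alone (14.3% of all features) and by limma-voom with sample quality weights (22.4%). These were 3 of 19 alternatives in all. Against the nutrient-rich mutant without replicate 2, Dapma7bEVm001259t1 turned from -0.24 to 0.80 (SE 0.25, edgeR adjusted p = 0.0358), while Dapma7bEVm001772t1 went from -0.53 to 0.09 (SE 0.17, edgeR adjusted p = 0.721) and Dapma7bEVm008354t1 from 0.13 to 0.72 (SE 0.31, edgeR adjusted p = 0.105).

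The gene named UHRF1 without the suffix, Dapma7bEVm022218t1 (2.33 RPKM), was rare, with 23 counts over the starved wild-type libraries, 49 over the starved mutant and 12 over the nutrient-rich mutant. Its level was 0.713, 1.10 and 0.474 CPM in starved wild-type libraries, 1.68, 1.15 and 1.38 in starved mutants and 0.396, 0.627 and 0.315 in nutrient-rich mutants. The starved mutant lay above both other groups, and nutrient-rich replicate 2 exceeded 1 starved library, wild-type replicate 3. It was called against the nutrient-rich mutant (log2 fold change 1.64, SE 0.46, edgeR adjusted p = 0.0277), in 11 of 19 alternatives, and not against the starved wild type (0.87, SE 0.42, edgeR adjusted p = 0.308). Leaving out starved wild-type replicate 1, any starved mutant library, or nutrient-rich mutant replicate 1 or 3 ended the call, as did the replicate block and a fit on every feature with a count, with adjusted p up to 0.0963. Without nutrient-rich mutant replicate 2 the value was 1.94 (SE 0.51, edgeR adjusted p = 0.0182). The files do not say how reads that match several of these related genes were divided, so that the level of each copy is uncertain.

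The 3 methyl-CpG-binding genes were not called by edgeR in either comparison, and 0 of them had an unadjusted p below 0.05. Methyl-CpG-binding protein 2 (Dapma7bEVm004764t1, 12.7 RPKM), named after the vertebrate reader of methylated CpG, had 16.0, 14.6 and 20.8 CPM in starved wild-type libraries, 17.4, 21.9 and 19.2 in starved mutants and 17.5, 28.6 and 18.5 in nutrient-rich mutants. All 3 groups overlapped, and the log2 fold changes were 0.19 (95% interval -0.32 to 0.70) and -0.14 (-0.65 to 0.37), the latter turning to 0.11 (SE 0.17) without nutrient-rich mutant replicate 2. A further, less abundant feature of this gene was at -0.05 (SE 0.35, edgeR adjusted p = 0.96) and -0.72 (SE 0.35, edgeR adjusted p = 0.168), not called in either comparison. Methyl-CpG-binding domain protein 2-like (Dapma7bEVm006374t1), named after the subunit that ties the NuRD complex to methylated DNA, had 11.5, 9.57 and 10.3 CPM in starved wild-type libraries, 14.5, 17.3 and 13.9 in starved mutants and 9.60, 17.9 and 8.82 in nutrient-rich mutants. Every starved mutant library exceeded every starved wild-type one, with a log2 fold change of 0.54 (SE 0.27, edgeR adjusted p = 0.316), and the difference from the nutrient-rich mutant was 0.34 (SE 0.27, edgeR adjusted p = 0.404). Without nutrient-rich mutant replicate 2 the latter became 0.72 (SE 0.15, edgeR adjusted p = 0.00631) and was called, as were 28.5% of all features. Methyl-CpG-binding domain protein 4 (Dapma7bEVm006011t1), named after a DNA glycosylase of mismatches at CpG, had 7.44, 7.28 and 10.1 CPM, then 7.86, 11.6 and 8.61 CPM, and then 6.14, 16.0 and 7.24 CPM in the 3 groups in the same order. Its groups overlapped, with log2 fold changes of 0.18 (95% interval -0.63 to 0.99) and -0.06 (-0.87 to 0.75), the latter turning to 0.48 (SE 0.23) without that library.

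**Figure D3:**
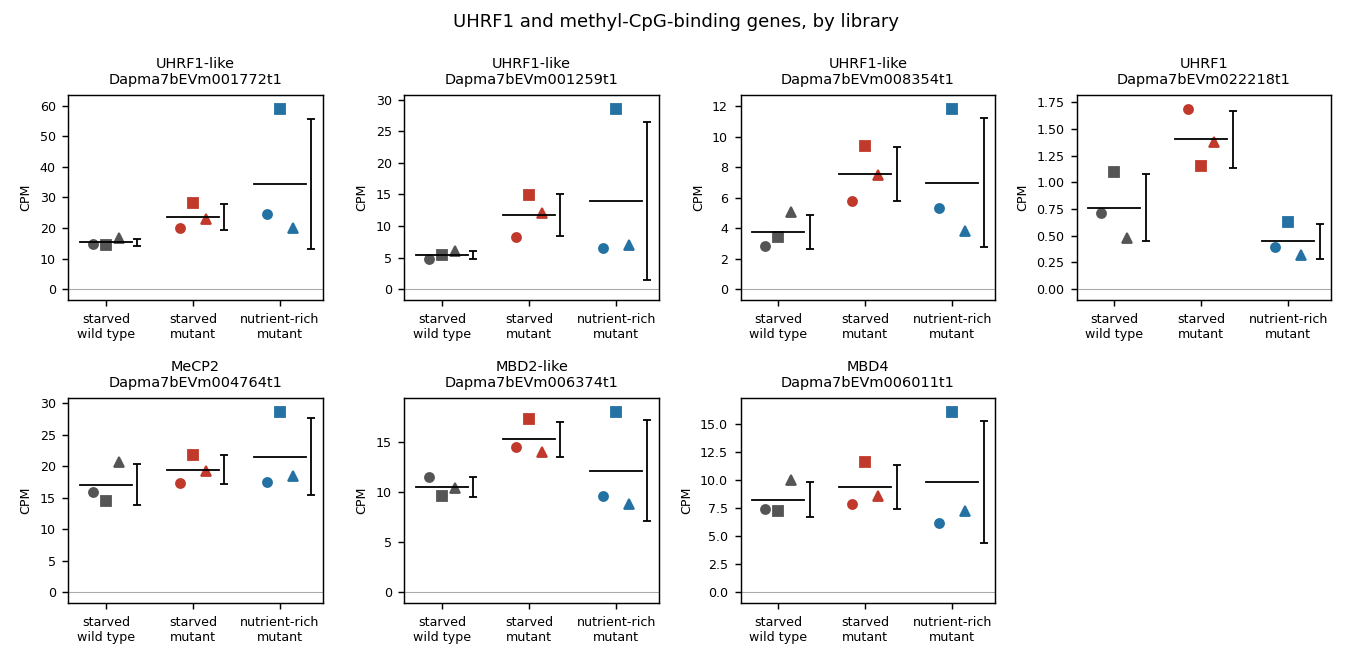
CPM (y axis) of the 4 UHRF1-named and 3 methyl-CpG-binding genes in each of the 9 libraries (circle, square and triangle for replicates 1, 2 and 3), with group means as lines and the SD over 3 libraries as bars. Nutrient-rich mutant replicate 2 is the highest point in 6 of the 7 panels, such as 58.8 CPM for Dapma7bEVm001772t1, and the UHRF1 gene Dapma7bEVm022218t1 is the exception.

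All 10 genes with Polycomb in the name, including enhancer of polycomb homolog 1, passed the filter. Of these, 0 were called between the starved groups by edgeR, DESeq2 or limma-voom, against 7.17%, 11.3% and 22.4% of all features. In edgeR 2 had an unadjusted p below 0.05. All 10 had log2 fold changes above 0, with a median of 0.35, where 9271 of 18675 features were above 0. Germ line and ovary genes were above 0 in 13 of 13, DNA replication and mitosis genes in 38 of 46 and digestive peptidases in 18 of 87. The Polycomb gene closest to a call was BMI-1-B (Dapma7bEVm007782t1), named after a subunit of Polycomb repressive complex 1 and singled out after its values were seen. It had 16.7, 14.7 and 17.4 CPM in starved wild-type libraries, 21.3, 28.0 and 23.4 in starved mutants and 16.9, 19.4 and 22.1 in nutrient-rich mutants. The starved groups did not overlap, at a log2 fold change of 0.58 (SE 0.16, edgeR adjusted p = 0.0699). The most abundant per length was polycomb group RING finger protein 3 (Dapma7bEVm006407t1, 21.8 RPKM), with 16.1, 18.3 and 18.0 CPM in starved wild-type libraries, 21.9, 21.4 and 24.3 in starved mutants and 17.9, 55.5 and 17.0 in nutrient-rich mutants. Its log2 fold changes were 0.36 (SE 0.41, edgeR adjusted p = 0.72) and -0.42 (SE 0.41, edgeR adjusted p = 0.503), and the latter turned to 0.36 (SE 0.11, edgeR adjusted p = 0.0303) without nutrient-rich mutant replicate 2, below the fold change required for a call. EED and Suz12, partners of E(z) in Polycomb repressive complex 2, had log2 fold changes of 0.35 (SE 0.19) and 0.14 (SE 0.17) between the starved groups.

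Polycomb protein Asx (Dapma7bEVm011898t1), named after a fly partner of a histone H2A deubiquitinase, was called between the mutant groups on few counts. It had 4.58, 2.15 and 7.92 CPM in the starved mutant and 0, 0.627 and 0 CPM in the nutrient-rich mutant, which amounts to 169 against 5 counts. In the starved wild type it had 5.30, 1.69 and 0.285 CPM, a spread that covered most of the starved mutant. The fitted log2 fold change was 4.62 between the mutant groups (SE 1.29, edgeR adjusted p = 0.0287) and 1.01 between the starved groups (SE 0.95, edgeR adjusted p = 0.656). Replicate 2 held all 5 counts of the nutrient-rich mutant, and without it the fitted value between the mutant groups was 8.71 (SE 2.25, edgeR adjusted p = 0.0207), which is no bound, since the remaining 2 libraries were at 0. The call held in 13 of 19 alternatives and was lost without starved mutant replicate 1 or 3 and without nutrient-rich mutant replicate 1 or 3, as well as with limma-voom and the replicate block, with adjusted p up to 0.0922.

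Of 5 tested chromodomain genes, 1 was called, between the mutant groups, where 23.1% of all features were. Chromodomain protein Y-like 2 (Dapma7bEVm002253t1), named after a family that binds methylated lysine 9 of histone H3, had 6.11, 7.38 and 8.35 CPM in starved wild-type libraries, 6.83, 11.0 and 10.8 in starved mutants and 5.54, 4.76 and 5.25 in nutrient-rich mutants. All starved mutant libraries lay above all nutrient-rich ones, at a log2 fold change of 0.88 (SE 0.24, edgeR adjusted p = 0.0251), and the starved groups overlapped (0.39, SE 0.23, edgeR adjusted p = 0.428). The call was found in 13 of 19 alternatives and was lost without starved mutant replicate 2 or 3, without nutrient-rich mutant replicate 1 or 3, in the fit of the 6 mutant libraries alone and in the fit on every feature with a count. Mi-2 (Dapma7bEVm000076t1, 15.7 RPKM), the remodelling ATPase of the NuRD complex, had 117, 115 and 128 CPM in starved wild-type libraries, 107, 106 and 108 in starved mutants and 123, 218 and 116 in nutrient-rich mutants. The starved mutant was the lowest group without overlap, yet by little, with log2 fold changes of -0.16 (SE 0.22, edgeR adjusted p = 0.782) and -0.50 (SE 0.22, edgeR adjusted p = 0.137), the latter becoming -0.16 (SE 0.08) without nutrient-rich mutant replicate 2.

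None of the 9 genes with histone deacetylase in the name and none of the 7 acetyltransferase genes was called in either comparison in edgeR. The 9 included SDS3 and SAP30, which are named as parts of deacetylase complexes. An unadjusted p below 0.05 was found for 1 and 0 of them between the starved groups and for 2 and 1 between the mutant groups. DESeq2 called 0 of them in both comparisons, with 25.5% of all features called between the mutant groups. Limma-voom called 0 between the starved groups and, between the mutant groups (32.2% of all features), 1 deacetylase lower and 3 acetyltransferases higher. Rpd3, the class I deacetylase of the Sin3 and NuRD complexes, had 79.7, 70.1 and 85.6 CPM in starved wild-type libraries, 96.1, 131 and 112 in starved mutants and 99.4, 256 and 98.6 in nutrient-rich mutants. The starved groups were separate at a log2 fold change of 0.52 (SE 0.35, edgeR adjusted p = 0.488), and nutrient-rich replicate 2 was again far above its group. Histone deacetylase 4 (Dapma7bEVm001362t1), a class II deacetylase singled out after its values were seen, ran in the opposite direction with 53.7, 54.7 and 53.5 CPM in starved wild-type libraries, 43.0, 34.6 and 37.6 in starved mutants and 28.4, 26.7 and 31.7 in nutrient-rich mutants. Its groups did not overlap, and nutrient-rich replicate 2 lay with the other libraries of its group. The log2 fold change was -0.49 between the starved groups (SE 0.13, edgeR adjusted p = 0.0544) and 0.41 between the mutant groups (SE 0.13, edgeR adjusted p = 0.0474), and both were below the fold change required for a call.

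The acetyltransferase KAT8 (Dapma7bEVm003744t1, 15.7 RPKM), the homolog of the fly dosage compensation enzyme that acetylates lysine 16 of histone H4, was tight within the starved groups. It had 27.7, 27.2 and 27.5 CPM in starved wild-type libraries, 33.6, 37.2 and 35.9 in starved mutants and 21.8, 33.6 and 17.7 in nutrient-rich mutants. The starved groups were separate, with a log2 fold change of 0.37 (SE 0.21, edgeR adjusted p = 0.402), and the difference from the nutrient-rich mutant was 0.55 (SE 0.21, edgeR adjusted p = 0.0944). Without nutrient-rich mutant replicate 2 the latter was 0.84 (SE 0.11, edgeR adjusted p = 0.000767). The 2 genes named KAT6B were likewise not called with all 9 libraries and were called against the nutrient-rich mutant without that library, at log2 fold changes of 0.92 (SE 0.11, edgeR adjusted p = 0.000561) and 0.81 (SE 0.14, edgeR adjusted p = 0.0029). Without that library 28.5% of all features were called between the mutant groups. A further feature of the KAT6B gene Dapma7bEVm009805t1, with a mean of 29.3 counts, was itself called between the starved groups, the mutant being higher (log2 fold change 1.71, SE 0.41, edgeR adjusted p = 0.0393), whereas the main feature of that gene was at 0.44 (SE 0.27, edgeR adjusted p = 0.438).

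The 6 lysine demethylases and 4 bromodomain genes were not called in either comparison by edgeR, where 7.17% and 23.1% of all features were. Between the mutant groups, a bromodomain and PHD finger gene (Dapma7bEVm002562t1) was called higher by DESeq2 (DESeq2 adjusted p = 0.0486) and limma-voom (limma-voom adjusted p = 0.000247). These methods called 25.5% and 32.2% of all features there. Lid (Dapma7bEVm002091t1, 20.5 RPKM), the demethylase of trimethylated lysine 4 of histone H3 in the fly, had 102, 111 and 114 CPM in starved wild-type libraries, 122, 159 and 129.9 in starved mutants and 98.9, 157 and 100.5 in nutrient-rich mutants. Its log2 fold changes were 0.33 (SE 0.20, edgeR adjusted p = 0.42) and 0.21 (SE 0.20, edgeR adjusted p = 0.492), with the starved groups separate and the mutant groups overlapping, and the latter was 0.46 (SE 0.12, edgeR adjusted p = 0.0185) without nutrient-rich mutant replicate 2, below the fold change required for a call. BAZ1A (Dapma7bEVm009750t1, 15.8 RPKM), named after the partner of the ISWI remodeller in the ACF complex, had 78.4, 78.0 and 73.9 CPM in starved wild-type libraries, 83.0, 107 and 95.4 in starved mutants and 79.2, 129 and 76.4 in nutrient-rich mutants. It stood at 0.31 (SE 0.21, edgeR adjusted p = 0.491) and 0.01 (SE 0.21, edgeR adjusted p = 0.988), and without that library the latter was 0.29 (SE 0.11, edgeR adjusted p = 0.0726). Demethylase 3B and SMARCC2 were among the steadiest members, with log2 fold changes of -0.02 (SE 0.13) and -0.02 (SE 0.12) between the starved groups.

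Nutrient-rich mutant replicate 2 was the library in which many members peaked. It held the highest level of all 9 libraries in 46 of 76 members (60.5%), against 28.3% of all tested features, and the lowest in 12. Relative to the mean of the other 2 nutrient-rich libraries it stood at a median log2 ratio of 0.66 over the members and of -0.07 over all features. The members summed to 3652 CPM in it, against 2349 and 2289.7 in replicates 1 and 3 of its group, 2869 to 3400.5 in starved mutants and 2503 to 2636 in starved wild-type libraries. By role, the same median log2 ratio ran from 0.01 for chromodomain genes and 0.30 for trithorax and SWI/SNF genes, which summed to 357 CPM against 290.1 and 319, to 1.33 for UHRF1-named genes, with 99.7 CPM against 36.8 and 31.1.

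Genes of DNA replication and mitosis also had their highest sum in that library, and their sum was larger in each starved mutant than in each starved wild-type library. Of 48 such genes 46 passed the filter and the other 2 were at 0 counts. Their summed level was 1449 to 1575 CPM over starved wild-type libraries, 1859 to 2355 over starved mutant ones, and 1925, 4293 and 1707 in nutrient-rich mutant replicates 1 to 3. Between the starved groups 3 of 46 were called higher and 0 lower (2.93% and 4.24% of all features), and without nutrient-rich mutant replicate 2 these were 19 higher and 1 lower (6.23% and 7.60% of all features). Between the mutant groups 9 of their log2 fold changes were above 0 and 37 below, and without that library 26 and 20. Germ line and ovary genes (13 of 14 tested) had sums of 677 to 714 CPM (starved wild type), 845 to 977 (starved mutant) and 743 to 1289 (nutrient-rich mutant). Other lists moved differently. Digestive peptidases summed to 11037 to 18899, 5215 to 9450 and 15151 to 19983 CPM in the same order of groups. Neuron and eye genes summed to 2414 to 2582, 2723 to 2919 and 1136 to 1624 CPM, with nutrient-rich mutant replicate 2 lowest. Muscle genes summed to 11796 to 13004, 12613 to 13366 and 7510 to 10776 CPM. The part of such differences in cell type or cell division in the members' levels was not tested.

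**Figure D4:**
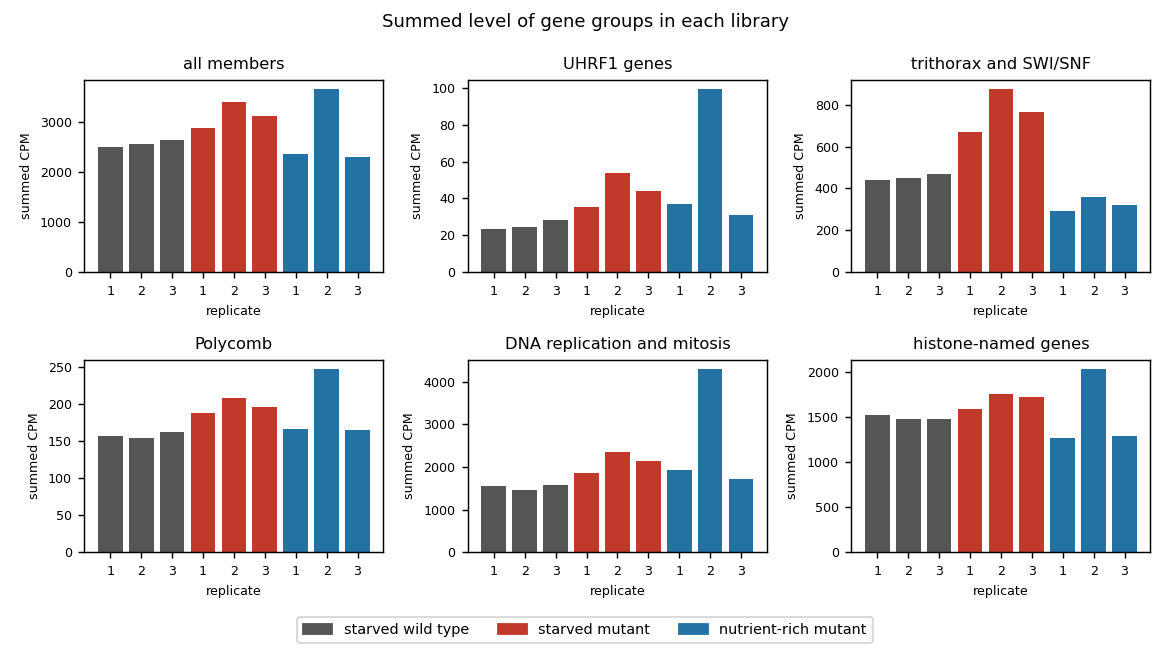
Summed CPM (y axis, from 0) of 6 gene groups in each of the 9 libraries (x axis, replicates 1 to 3 of each group, coloured by group). Nutrient-rich mutant replicate 2 is the highest library for all members (3652 CPM), UHRF1 genes, Polycomb genes, histone-named genes and DNA replication and mitosis (4293 CPM). The starved mutant is the highest group for the sum of trithorax and SWI/SNF genes (669.8 to 876 CPM). Most of that sum came from the osa-like gene Dapma7bEVm001111t1 and osa isoform X4, and the genes named as SWI/SNF subunits were not called.

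Without nutrient-rich mutant replicate 2, 9 members were higher and 1 was lower in the mutant among the starved libraries, while calls over all features rose to 13.8%. The 6 added were the 3 UHRF1-like genes, NSD2 (Dapma7bEVm005016t1, log2 fold change 0.73, SE 0.17, edgeR adjusted p = 0.0229), methyltransferase 2C (Dapma7bEVm024679t1, 1.67, SE 0.49, edgeR adjusted p = 0.0483) and BMI-1-B (0.59, SE 0.15, edgeR adjusted p = 0.0265). A fit of the 6 starved libraries alone, which does not use the nutrient-rich group at all, called the same 10 genes, with 14.3% of all features called. Leaving out starved wild-type replicate 1, 2 or 3, or starved mutant replicate 2 or 3, reduced the 3 higher members to 1 in each case. The osa-like gene Dapma7bEVm001111t1 and the lower osa-like gene Dapma7bEVm023089t1 were the members still called. Over all features, those called higher fell in the same fits from 547 to between 220 and 279.

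Between the mutant groups, 15 members were higher and 1 lower without nutrient-rich mutant replicate 2, while 28.5% of all features were called and the members' median log2 fold change was 0.27. The 9 added were UHRF1-like Dapma7bEVm001259t1, methyl-CpG-binding domain protein 2-like, KAT8, both KAT6B genes, NSD2 Dapma7bEVm005016t1, NSD2-like Dapma7bEVm030282t1, BMI-1 and a bromodomain and PHD finger gene. The last of these (Dapma7bEVm002562t1) had 27.4, 24.8 and 25.0 CPM in the starved mutant and 12.8, 23.7 and 13.6 in the nutrient-rich mutant. Even with replicate 2 these groups did not overlap, at a log2 fold change of 0.63 (SE 0.23, edgeR adjusted p = 0.0755). The 6 higher members fell to 3 when either starved mutant replicate 2 or replicate 3 of the nutrient-rich mutant was left out. They fell to 2 without starved mutant replicate 3. Over all features, those called higher fell in these 3 fits from 2076 to 1523, 1877 and 1394. The 1 lower member became 2 without nutrient-rich mutant replicate 1, where all features called lower went from 2244 to 2044.

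Related genes outside the name rule gave few calls. Of 23 tested genes with histone in a core or linker histone name, a list that also took a histone H4 transcription factor, edgeR called 0 between the starved groups (1 had an unadjusted p below 0.05), and 1 was higher and 1 lower between the mutant groups, against 7.17% and 23.1% of all features called. Without nutrient-rich mutant replicate 2 there were 3 higher between the starved groups, and 2 higher and 2 lower between the mutant groups (13.8% and 28.5% of all features), and the 6 starved libraries alone gave 2 higher. Since histone mRNA mostly lacks a poly(A) tail and the libraries were selected by oligo(dT), these counts may cover only part of it. Among 6 arginine methyltransferases, 5 sirtuins, 8 histone chaperones and 8 other remodelling genes, 0 were called between the starved groups in edgeR (1, 1, 1 and 0 with an unadjusted p below 0.05), and 2 arginine methyltransferases were lower in the starved than in the nutrient-rich mutant (12.0% of all features). Without nutrient-rich mutant replicate 2, 1 histone chaperone was called higher between the starved groups and 1 sirtuin between the mutant groups. The methylcytosine dioxygenase TET2 (Dapma7bEVm018501t1), an enzyme that oxidises methylated cytosine, had 55.2, 46.0 and 59.1 CPM in starved wild-type libraries, 66.1, 88.6 and 70.9 in starved mutants and 36.3, 82.9 and 36.5 in nutrient-rich mutants. The starved groups did not overlap, and the log2 fold changes of 0.49 (edgeR adjusted p = 0.458) and 0.54 (edgeR adjusted p = 0.249) were not called. The latter became 1.04 and was called by edgeR without nutrient-rich mutant replicate 2.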

How the data were processed

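With CLC Genomics Workbench 12 the authors aligned the reads to the genome of the species and deposited raw counts (total gene reads) and RPKM per feature for the 9 libraries, and named features by homology. The count column of nutrient-rich mutant replicate 1 carries another label than its RPKM column. The deposited tables of the authors' own comparisons (fold change and FDR p-value) were not used. The test was that of edgeR 4.0.16 under R 4.3.3 (filterByExpr, TMM, quasi-likelihood F-test, 1 fit of 3 groups), with Benjamini-Hochberg adjustment over 18675 features, and a call required an adjusted p below 0.05 with a change of 1.5-fold or more. SE was the log2 fold change divided by the square root of F. RPKM served to compare levels between genes. The feature with the highest mean count stood for its gene ID.

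Members and lists were chosen with earlier results of these data known. Named genes were all members called in a comparison, all tested UHRF1 and methyl-CpG-binding genes, and the member of highest mean RPKM in each role group. Others are named as seen afterwards, including those called without nutrient-rich mutant replicate 2, PR-set7's neighbours in their groups and TET2. DESeq2 1.42.0, limma 3.58.1 (voom), other scalings, filters and left-out libraries were alternatives. The procedure was tested on simulated counts, in which no library had a profile of its own. That test therefore cannot show how nutrient-rich mutant replicate 2 affected the calls. No sequences of the members were used here.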

Additional observations from a re-analysis of the deposited data

How the results depend on the processing

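Between the starved groups, the 3 higher members became 9 with limma-voom and 9 in the 6 libraries alone, where all features called higher and lower numbered 1674 and 2507, and 1193 and 1400, against 547 and 792. DESeq2 called 1329 features lower. Between the mutant groups, the 6 higher members became 16 with library totals as scaling (all features 3436 higher and 1138 lower, against 2076 and 2244). There the median over all features moved from -0.07 to 0.29 and that of the members to 0.37. With limma-voom the higher members became 14 (2 lower, median 0.27), while 32.2% of all features were called. UHRF1-like Dapma7bEVm001259t1 turned from -0.24 to 0.76 with limma-voom.

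With 1 library left out at a time, the higher members ranged from 1 to 9 between the starved groups and from 2 to 15 between the mutant groups, and the lower ones stayed at 1 and ranged from 1 to 2. Over all features the starved groups gave 220 to 1206 higher and 285 to 1472 lower, and the mutant groups 1394 to 2778 higher and 1533 to 2732 lower. The members' median between the mutant groups ran from -0.12 to 0.27, and the value of Dapma7bEVm001259t1 there from -0.59 to 0.80. Nutrient-rich mutant replicate 2 set the upper end of each of these, apart from the lower members.

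Whether the replicate numbers pair the libraries was not settled. Same-numbered libraries of different groups had deviations correlated at -0.17 to 0.24, and differently numbered ones at -0.24 to 0.20. Between the mutant groups the same-numbered values were 0.19, 0.24 and 0.01, and the others ran from -0.24 to 0.17. A fit with the number as a block called 2 members higher and 1 lower between the starved groups and 4 and 1 between the mutant groups. It called 5.55% and 20.4% of all features in these comparisons. Rare members, such as UHRF1 and Asx, are limited by their counts.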
